A study of Rattus norvegicus with 3 samples.

Results

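The genes described here are 10 regulators of the G1 phase of the cell cycle, out of 17337 genes listed in the deposited table. They are the D-type cyclin genes Ccnd1, Ccnd2 and Ccnd3, the kinase genes Cdk4 and Cdk6, the inhibitor genes Cdkn1a, Cdkn1b, Cdkn2b and Cdkn2c, and Rb1. They were chosen by symbol, with earlier results of these data known, and all 10 were matched. RNA was sequenced from 3 libraries of Schwann cell precursors, the early glia of peripheral nerve. They came from the dorsal root ganglia of wild-type rat embryos. The cells were kept in a DMEM-based modified Sato medium and received no treatment. All 3 libraries form 1 group, so the data give levels and ratios between genes and no contrast between conditions. The labels give neither the embryonic day nor whether animals were pooled or the libraries came from separate cultures, so every spread and p-value measures only the variation between these libraries, which may be technical.

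In G1, mitogens raise the D-type cyclins, which bind and activate the kinases CDK4 and CDK6. The active complexes phosphorylate the retinoblastoma protein and its relatives, the pocket proteins, which then release E2F transcription factors and allow entry into S phase. INK4 inhibitors bind the free kinases CDK4 and CDK6, whereas Cip/Kip inhibitors bind cyclin-CDK complexes and block those that contain CDK2. In Schwann cells, axonal neuregulin drives proliferation before birth, and cells leave the cycle as they differentiate.

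The libraries held 14139074 to 15309526 counts. Levels are given as TPM, the count per base of listed exon scaled to the same total in each library, with the SD over 3 libraries. Schwann lineage markers were high, with 8 of 8 measured genes above 1 TPM and a summed level of 10694 to 10928 TPM, among them Sox10 at 612 ± 26 and Erbb3 at 581 ± 14.3 TPM. All 6 fibroblast markers were above 1 TPM as well, with a summed level of 7670 to 7840 TPM, so the RNA of a gene expressed in both cell types cannot be assigned to either. The 6 sensory neuron markers summed to 498 to 527 TPM, the 4 macrophage markers to 6.57 to 10.6 TPM and the 3 endothelial markers to 16.3 to 18 TPM, nearly all of it Cdh5, with Pecam1 at 0.0693 ± 0.0695 and Kdr at 0.178 ± 0.105 TPM. In bulk RNA, fewer cells of a type and less RNA per cell cannot be told apart.

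All 10 genes were above 1 TPM in limma's moderated test of log2(TPM + 1) against the value at 1 TPM, where 78.4% of the 13345 genes with a count were called above and 17.8% below (Benjamini-Hochberg adjusted p under 0.05). The median of the 10 mean levels was 108 TPM, beside 21.7 TPM over all genes tested. Since the genes were chosen with earlier results of these data known, this comparison is a description only. The levels spanned 6.76 TPM for Cdk6 to 533 TPM for Cdk4, the highest of the 10 and 276th of all genes listed.

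**Figure D1:**
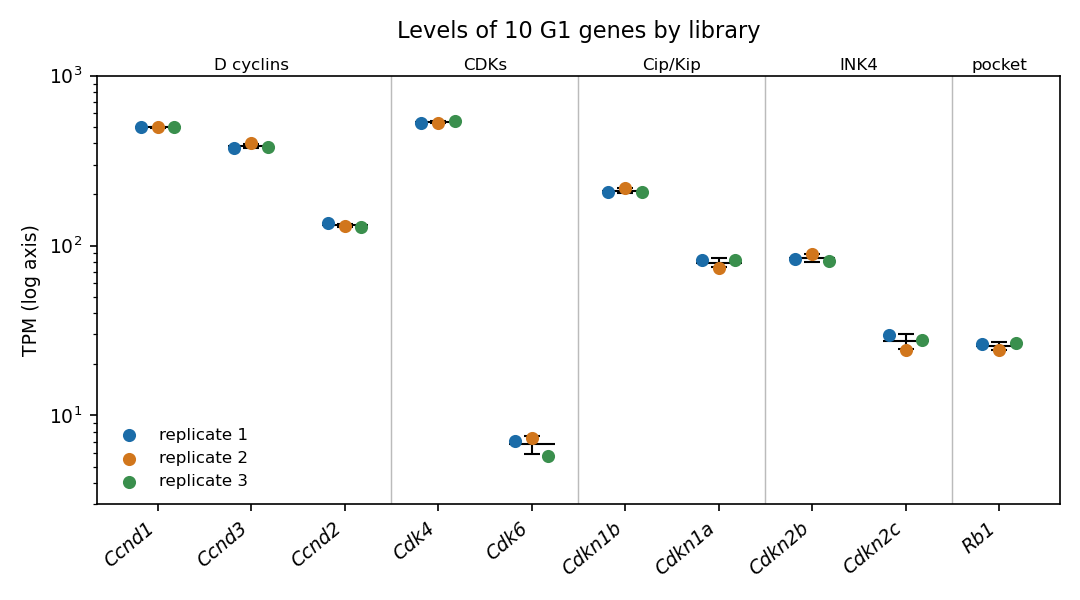
Level of each of the 10 genes in TPM (log axis) in replicates 1, 2 and 3 (points), with the mean and SD over the 3 libraries (line and bars), grouped by role. The libraries of each gene lie close together, whereas the genes spread from 6.76 TPM (Cdk6) to 533 TPM (Cdk4).

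The D-type cyclins were present in unequal amounts. Ccnd1, the cyclin most directly coupled to mitogen signalling, had 498, 501 and 496 TPM in replicates 1, 2 and 3, from 14003, 13119 and 12996 counts. Ccnd3 had 375, 400 and 382 TPM, and Ccnd2 had 135, 131 and 129 TPM. Ccnd1 was highest and Ccnd2 lowest in every library, and no value of one cyclin overlapped those of another. Ccnd1 exceeded Ccnd3 by a log2 ratio of 0.37 ± 0.02 (SE, limma; 1.29-fold) and Ccnd2 by 1.92 ± 0.02 (3.79-fold). Ccnd3 exceeded Ccnd2 by 1.55 ± 0.04 (2.93-fold). Of the summed D cyclin level of 1015 ± 14.2 TPM, Ccnd1 made up 49.1% ± 0.454, Ccnd3 38.0% ± 0.762 and Ccnd2 13.0% ± 0.354 (SD, n = 3). These shares rest on the listed exon lengths, which were 3809 bases for Ccnd1, 1820 for Ccnd3 and 1414 for Ccnd2. Whether these lengths cover the whole transcripts was not tested. In shares of counts, without division by length, Ccnd1 made up 68.1%, Ccnd3 25.2% and Ccnd2 6.68%.

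The kinases were further apart than any other related pair compared. Cdk4 had 530, 525 and 543 TPM, and Cdk6 had 7.12, 7.36 and 5.80 TPM. Cdk4 was therefore far above Cdk6 in all 3 libraries, while Cdk6 was the lowest of the 10 genes in each. The level of Cdk6 rests on 1502 bases of listed exon, and whether these cover its whole transcript was not tested. The log2 ratio of Cdk4 to Cdk6 was 6.29 ± 0.10 (SE, limma), and the TPM ratio was 74.5, 71.4 and 93.5 in replicates 1, 2 and 3. Cdk6 rested on 79, 76 and 60 counts, so counting error alone gives a coefficient of variation of 11.9%, beside an observed 12.4%, and without replicate 3 Cdk6 varied by 2.33%. It was still above 1 TPM (log2(TPM + 1) higher by 1.95 ± 0.08 than at 1 TPM, limma adjusted p = 2.10e-07). Cdk4 made up 98.7% ± 0.173 of the summed CDK level of 540 ± 8.17 TPM, which was below that of the D cyclins (D cyclins over CDKs 1.88 ± 0.0510, SD, n = 3).

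Among the Cip/Kip inhibitors, Cdkn1b, which encodes p27 and restrains CDK2, had 208, 219 and 208 TPM. Cdkn1a, which encodes p21, had 82.3, 73.6 and 82.6 TPM. Cdkn1b was above Cdkn1a in every library, by a log2 ratio of 1.41 ± 0.05 (SE, limma; 2.67-fold). Cdkn1c, the remaining gene of this family, which encodes p57 and is imprinted in mouse and human, was at 69.0 ± 2.90 TPM, and Cdkn1b exceeded it by 1.61 ± 0.04 on the log2 scale.

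Among the INK4 inhibitors, Cdkn2b, which encodes p15 and is induced by TGF-beta in epithelial cells, had 83.7, 89.7 and 80.8 TPM. Cdkn2c, which encodes p18, had 29.7, 24.4 and 28 TPM. Cdkn2b was higher in each library, by a log2 ratio of 1.63 ± 0.07 (SE, limma; 3.13-fold). Cdkn2a, a gene next to Cdkn2b that encodes both p16 and Arf, whose transcripts a count per gene does not separate, was at 35.1 ± 0.399 TPM. Cdkn2b exceeded it by 1.27 ± 0.07 on the log2 scale, and by 0.92 with 200 bases taken off each listed length. Cdkn2d, the other INK4 gene, was not analysed here.

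The summed level of the 4 inhibitors was 403 ± 3.60 TPM, of which Cdkn1b made up 52.4% ± 1.22, Cdkn2b 21.0% ± 0.946, Cdkn1a 19.7% ± 1.42 and Cdkn2c 6.79% ± 0.707 (SD, n = 3). The D cyclins together were 2.5, 2.54 and 2.52 times as high as these inhibitors in replicates 1, 2 and 3. Against all 6 inhibitors measured, with Cdkn1c and Cdkn2a added, they were 1.99, 2.01 and 2.01 times as high. These are sums of mRNA and say nothing of protein amounts.

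Rb1, which encodes the retinoblastoma protein, had 26.2, 24.2 and 26.8 TPM, and its 3 libraries lay within 1.11-fold of each other. It was higher than its relatives Rbl1, which encodes p107, at 12.8 ± 0.811 TPM and Rbl2, which encodes p130, at 19.5 ± 0.784 TPM, in 3 of 3 libraries each. The TPM ratio was 2.02 ± 0.194 to Rbl1 and 1.32 ± 0.0247 to Rbl2 (SD, n = 3), and both pairs passed by limma.

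**Figure D2:**
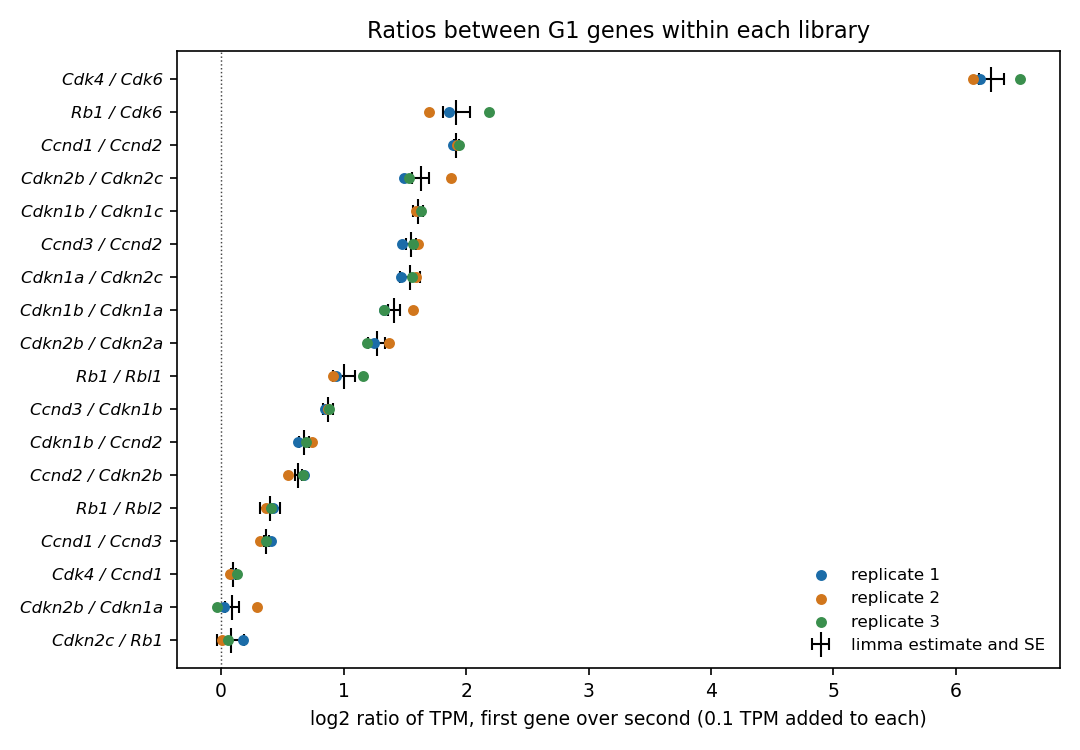
Log2 ratio of TPM, first gene over second with 0.1 TPM added to each, for the 18 pairs compared, in replicates 1, 2 and 3 (points) and as the limma estimate with its SE (black). Cdk4 over Cdk6 stands at 6.29, the other pairs lie between 0.08 and 1.92, and the points of Cdkn2b over Cdkn1a fall on both sides of 0.

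From high to low, the order by mean level was Cdk4, Ccnd1, Ccnd3, Cdkn1b, Ccnd2, Cdkn2b, Cdkn1a, Cdkn2c, Rb1 and Cdk6. Each ratio was tested with limma in a fit of the first gene's ratio to every other gene with a count, and 16 of 18 pairs passed at an adjusted p under 0.05. In those fits, between 51.4% (Rb1) and 97.8% (Cdk4) of the 13344 other genes were called lower than the first gene, so passing is common. The neighbours Cdkn2b and Cdkn1a did not differ beyond the spread between libraries. Their ratio was 0.02, 0.29 and -0.03 on the log2 scale, with an estimate of 0.09 ± 0.06 (SE) and an adjusted p of 0.130, and their library values overlapped. Neither did Cdkn2c over Rb1 pass, with an estimate of 0.08 ± 0.11 (SE) and an adjusted p of 0.448, although Cdkn2c was higher in 3 of 3 libraries. The closest pair that passed was Cdk4 over Ccnd1, at 0.10 ± 0.02 with an adjusted p of 0.00244, and it no longer passed when the variance was estimated without a trend (adjusted p = 0.0572). With 200 bases taken off each listed length it was 0.25, with an adjusted p of 3.94e-06. All ratios of a fit share the first gene's own values, so these p-values are too small. The limma SE draws each variance toward a trend over all genes, so it is not the spread of a pair itself. For Cdkn2b over Cdkn2c it was 0.07, beside an SD of 0.21 over the libraries. For Ccnd3 over Cdkn1b it was 0.04, beside an SD of 0.01. Without the trend, 15 pairs passed with adjusted p-values between 6.12e-06 and 0.00248.

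The same fits place each gene among all others. Cdk4 was above 97.8% of the 13344 other genes tested at an adjusted p under 0.05, Ccnd1 above 97.6%, Ccnd3 above 96.7% and Cdkn1b above 92.7%. Ccnd2 was above 87.7%, Cdkn2b above 79.8% and Cdkn1a above 78.3% of them. Cdkn2c and Rb1 stood in the middle of the range, above 51.6% and 51.4%, and Cdk6 was above 30.7%. Thus 3 of the 5 genes that promote G1 passage stood above every inhibitor, while Ccnd2 lay below Cdkn1b and Cdk6 below them all.

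**Figure D3:**
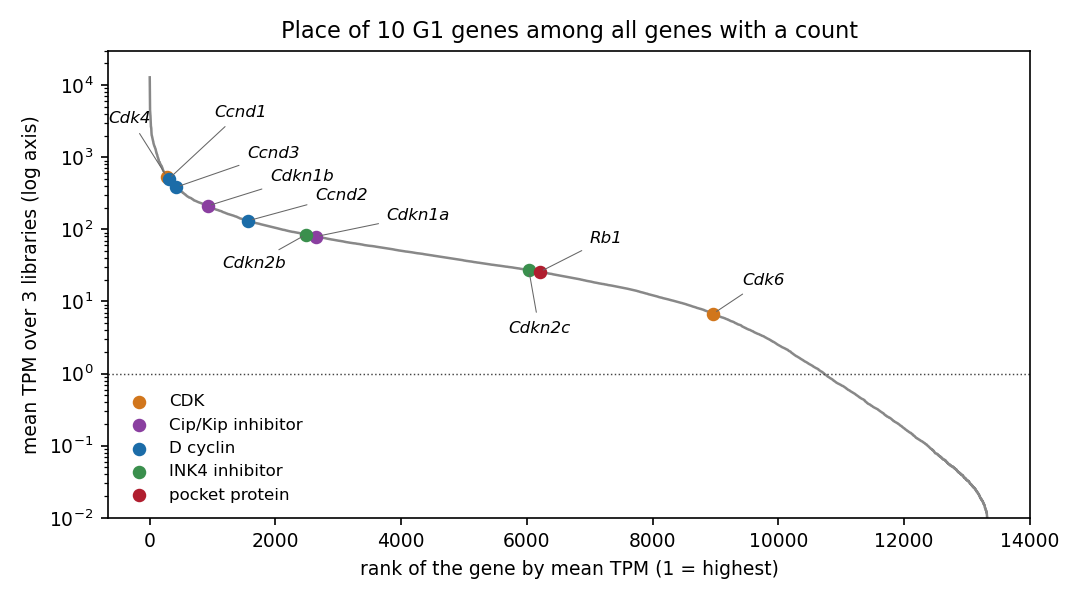
Mean TPM over 3 libraries (log axis) of every gene with a count against its rank, with the 10 genes marked by role and 1 TPM as a dotted line. Cdk4, Ccnd1 and Ccnd3 sit at ranks 276, 300 and 423, and Cdk6 at rank 8964.

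The spread between libraries was small but not equal across the genes. Ccnd1 had the lowest coefficient of variation, 0.523%, where counting error alone gives 0.865%, and Ccnd2 and Cdk4 had 2.13% and 1.69%. The other 7 genes varied more than the median of the 100 genes nearest to them in level. By definition, as many of the 100 nearest genes lie above their median as below it. The share over all genes was not computed, and the count of 7 is not read as a trait of these genes. Rb1 did so narrowly, at 5.37% beside 5.1% and more than 56 of 100, as did Cdkn1b, at 3% beside 2.59% and more than 59. Cdkn1a varied by 6.47%, beside a median of 3% for its nearest genes, and more than 94 of those 100. Cdkn2c varied by 9.92%, beside 4.89%, and more than 88 of 100. Both were lowest in replicate 2, with 941 and 240 counts there. Of the other 8 genes, Cdk4 and Rb1 were also lowest in that library, Ccnd1, Ccnd3, Cdkn1b, Cdkn2b and Cdk6 were highest in it, and Ccnd2 lay between. Without replicate 2 only 3 genes varied more than the median of their nearest genes, with Cdkn1a at 0.291% and Cdkn2c at 4.11%. Ccnd1 varied by 0.268% without that library. Ccnd2 varied by 1.07% without replicate 1, and Cdk4 by 0.644% without replicate 3. The summed level of 4 proliferation markers was 310, 283 and 298 TPM in replicates 1, 2 and 3. It was lowest in replicate 2 as well, and its part in the spread of Cdkn1a and Cdkn2c was not tested.

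Positions in the build rn6 are those of the deposited table. Ccnd1 (NCBI gene 58919) lies on the minus strand at chr1:218090750-218100272 with 5 listed exons, and Ccnd3 (25193) on the minus strand at chr9:15404865-15410895 with 5. Chromosome 4 holds Ccnd2 (64033; chr4:159674885-159697207, minus strand), Cdkn1b (83571; chr4:168689163-168693964, plus strand) and Cdk6 (114483; chr4:27785641-27966398, minus strand). Cdkn2b (25164; chr5:107851701-107857385) and Cdkn2c (54238; chr5:129347732-129352886) lie on the minus strand of chromosome 5. Cdkn1a (114851) lies on the plus strand at chr20:6348422-6358864.

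Cdk4 (94201; chr7:70345971-70352689, plus strand) shares 9 exonic bases with Tspan31 on the opposite strand, and Rb1 (24708; chr15:55081582-55277612, minus strand, 27 listed exons) shares 39 with Itm2b on the same strand. The listed lengths are 1364 bases for Cdk4 and 4443 for Rb1. Itm2b was at 400 ± 11.7 TPM, beside 25.7 ± 1.38 TPM for Rb1. How reads in the bases shared by Rb1 and Itm2b were counted is not known here, so the level of Rb1 is less certain. The effect of this overlap on the ratios of Rb1 was not tested. The RefSeq gene table of the GRCr8 assembly names 4 pseudogenes after Cdk4 and 1 after Ccnd3, and no source used here says how the authors counted reads that match several places, so the levels of Cdk4 and Ccnd3 are less certain.

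Promoter windows, from 250 bases before to 50 after the start of the gene, were found for 7 of the 10 genes in the RefSeq promoter table of GRCr8. They were searched on both strands for CACGTG (the E box bound by Myc and related factors), GGGCGG (the GC box), TGACGTCA (the cyclic AMP response element), TATAAA (the TATA box) and the E2F forms TTTCCCGC, TTTCGCGC, TTTGCCGC and TTTGGCGC. The 3 windows below are those of the highest gene, the higher INK4 gene and the pocket protein gene. They were picked after the matches were seen, and capitals mark every match.
Cdk4: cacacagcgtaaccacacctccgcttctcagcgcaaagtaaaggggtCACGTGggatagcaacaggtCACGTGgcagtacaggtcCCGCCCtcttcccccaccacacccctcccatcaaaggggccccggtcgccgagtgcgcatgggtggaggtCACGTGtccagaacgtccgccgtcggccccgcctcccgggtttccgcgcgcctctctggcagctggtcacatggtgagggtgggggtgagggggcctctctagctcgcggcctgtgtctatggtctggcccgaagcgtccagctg
Cdkn2b: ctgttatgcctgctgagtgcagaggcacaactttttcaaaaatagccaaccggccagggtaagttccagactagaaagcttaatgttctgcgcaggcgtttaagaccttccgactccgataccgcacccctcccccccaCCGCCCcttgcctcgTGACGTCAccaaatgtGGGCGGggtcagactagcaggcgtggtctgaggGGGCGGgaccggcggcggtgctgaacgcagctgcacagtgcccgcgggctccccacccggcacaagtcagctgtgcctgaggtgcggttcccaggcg
Rb1: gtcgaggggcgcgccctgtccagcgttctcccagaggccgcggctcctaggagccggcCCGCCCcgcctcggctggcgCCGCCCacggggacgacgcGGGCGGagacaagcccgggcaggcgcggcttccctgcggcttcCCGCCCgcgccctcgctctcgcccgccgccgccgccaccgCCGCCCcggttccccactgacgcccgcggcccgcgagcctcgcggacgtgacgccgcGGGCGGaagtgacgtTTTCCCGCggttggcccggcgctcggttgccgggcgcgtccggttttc
The windows are chr7:64771203-64771502 on the plus strand, chr5:109134806-109135105 on the minus strand and chr15:54911808-54912107 on the minus strand of GRCr8, in that order.

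The Cdk4 window holds 3 E boxes, beginning 203, 183 and 95 bases before the start, and 1 GC box. At least 1 E box is found in 6.42% of the 33469 windows in the table, and 3 or more in 0.0568%. None of the other 6 windows of these genes holds one. The Cdkn2b window holds 3 GC boxes and 1 cyclic AMP response element, which 1.83% of all windows hold. The Rb1 window holds 6 GC boxes, as many as or more than which are found in 1.15% of windows, and 1 E2F form, found in 2.14%. It is also the richest of the 7 windows in G and C, at 79.7%, where Cdkn1a is the poorest at 56.7%. The shares over all windows were not matched for this content, on which matches to GGGCGG depend. At least 1 GC box is found in 33.1% of all windows and in 6 of these 7, Cdkn1a being the exception, and a TATA box in 14.2% and in none of the 7. A match of letters is no evidence of binding, and no binding was measured. The Myc family genes themselves were at 28.9 ± 2.40 TPM for Myc and 9.80 ± 0.218 TPM for Mycn.

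The wider pathway was measured through 9 lists of G1 and S phase genes. Of 61 genes listed, 54 were measured and 7 were not analysed here, and all 54 were above 1 TPM by limma, where 78.4% of all genes tested were. Their levels were mostly below those of the D cyclins. The only one above Cdk4 was Skp1, a common subunit of SCF ubiquitin ligases, at 869 ± 19.2 TPM. In the list of cyclins E and A and their kinase, the median was 20.5 TPM, close to the 21.7 TPM of all genes tested. Ccna2, the S phase cyclin, was at 68.9 ± 0.926 TPM, Cdk2 at 34.4 ± 1.25 and Ccne1 at 22.1 ± 2.5 TPM. The lowest was Ccna1, a cyclin known from the germ line, at 2.20 ± 0.735 TPM.

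Of the pocket protein and E2F list, 9 of 12 genes were measured, with a median of 19.5 TPM. The highest was Tfdp1, the dimer partner of E2F factors, at 139 ± 3.66 TPM, followed by E2f4, a factor that works mainly with p107 and p130, at 46.5 ± 2.36 and E2f6, a repressor independent of pocket proteins, at 44.8 ± 1.94 TPM. E2f1, an activator held by the retinoblastoma protein, was at 22.4 ± 0.960 TPM. Of the MuvB list, whose complex joins p130 in resting cells, 5 of 7 genes were measured, with a median of 27.1 TPM. The core subunit genes Rbbp4 and Lin37 were at 93.2 ± 4.29 and 31.6 ± 4.15 TPM, and Foxm1, a factor that joins the core later in the cycle, at 27.1 ± 1.39 TPM. Of the trimeric CDK-activating kinase, Cdk7 was not analysed here, and the partner genes Ccnh and Mnat1 were at 40.9 ± 0.641 and 40.6 ± 1.55 TPM.

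**Figure D4:**
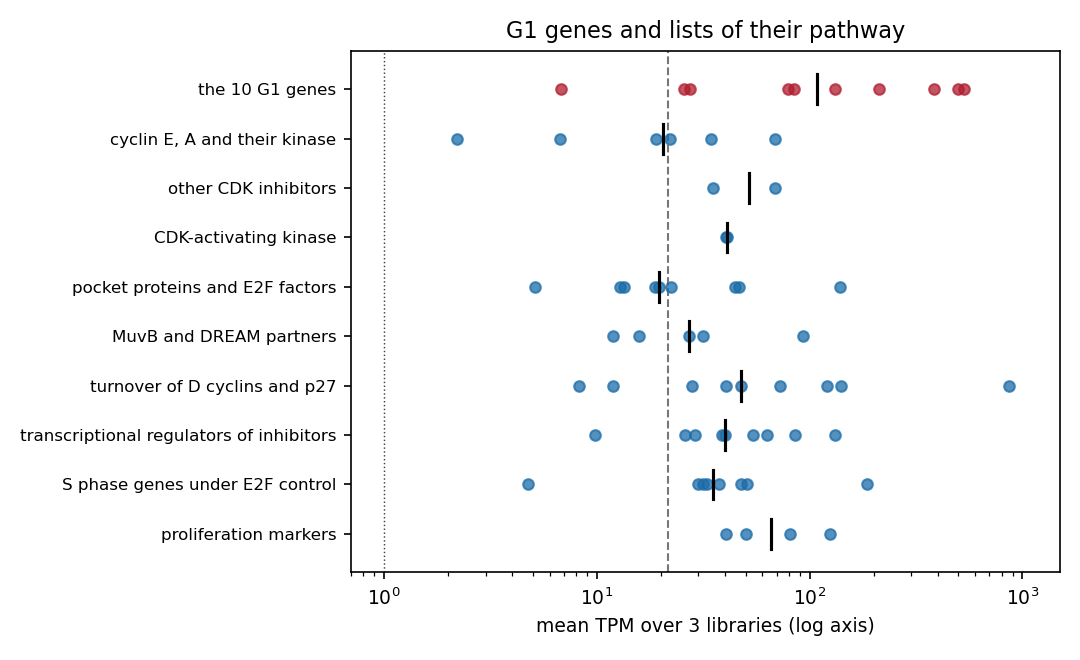
Mean TPM over 3 libraries (log axis) of the 10 genes (red) and of the measured genes in each pathway list (blue), with the median of each as a black bar, the median of all genes tested (21.7 TPM) as a dashed line and 1 TPM as a dotted line. Every point lies above 1 TPM, and the median of the 10 genes, 108 TPM, is to the right of the list medians.

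Genes that set the stability of D cyclins and p27 had a median of 47.6 TPM. After Skp1, the scaffold gene Cul1 was at 141 ± 5.20 and Gsk3b, a kinase that marks cyclin D1 for breakdown, at 121 ± 3.40 TPM. Among transcriptional regulators of the inhibitors, the median was 39.9 TPM, and the TGF-beta mediators Smad4 and Smad3 and the forkhead gene Foxo4 led at 132 ± 4.37, 85.7 ± 2.49 and 63.1 ± 1.81 TPM.

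Downstream of E2F, the 8 S phase genes had a median of 35.3 TPM, with the replication clamp gene Pcna at 187 ± 2.61, the helicase subunit gene Mcm2 at 50.8 ± 1.40 and Rrm2, a subunit of ribonucleotide reductase, at 47.5 ± 1.79 TPM. The 4 proliferation markers had a median of 65.6 TPM, with Cdk1 at 125 ± 3.39, Top2a at 80.8 ± 4.71 and Ccnb1 at 50.3 ± 3.40 TPM. Transcripts of inhibitors and of proliferation genes were thus measured in the same libraries, and bulk RNA does not show whether they came from the same cells.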

How the data were processed

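The 3 stranded poly(A) libraries were sequenced, and the authors deposited raw counts per gene, listed gene lengths, counts over length and TPM. Per the submitters' processing notes, STAR 2.5.2b, Subread and rn6 were used. The annotation and the rules for strand and for reads matching several places are not stated in any source used here. The deposited signal columns of counts over length were left out, as were 6 columns that repeat library totals and 2 rows that name no gene. Recomputing TPM from the deposited counts gave the same values to within 0.0005.

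Each gene with a count was tested with limma 3.58.1 (R 4.3.3) on log2(TPM + 1) against its value at 1 TPM, with a variance trend, two-sided, and Benjamini-Hochberg adjustment over all genes. A pseudocount makes differences of low genes look smaller. Ratios were tested in the same way on log2 ratios of each of the 10 genes to all others, with 0.1 TPM added. The genes, lists and pairs were chosen with earlier results of these data known. Named pathway genes are the 3 highest of each list and the family members, while Ccna1, E2f1, Myc and Mycn were picked after their values were seen. The settings tried included edgeR 4.0.16 on the counts and TMM and DESeq2 1.42.0 size factors. One list of pathway genes is not reported here. Both kinds of fit were run on simulated counts with known levels, the ratio fit for Cdkn1b only. That run does not measure by how much the p-values of the ratios are too small. No pair of libraries agreed within sampling noise (chi-square per degree of freedom 1.67 to 2.36). With 3 libraries the precision is limited, and counting error covers reads without molecular identifiers.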

Additional observations from a re-analysis of the deposited data

How the results depend on the processing

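No paired analysis was possible because the study has 1 group. All 10 genes, and all 54 pathway genes, stayed above 1 TPM at every pseudocount, filter, scaling, length and test tried and without each replicate. The number of all genes below 1 TPM was 2374, against 6235 with no filter and 1372 with a mean of 0.1 TPM required, by construction of the genes tested. Cdk4 over Ccnd1 was 0.10 without the variance trend but no longer passed, and was 0.25 and passed with 200 bases taken off each length. Cdkn2c over Rb1 was 0.23 and passed (adjusted p = 0.0349) at those lengths. Cdkn2b over Cdkn1a was -0.0038 without replicate 2 and -0.0038 to 0.16 over the 3 omissions. With 200 bases taken off, the shares were 47.3% for Ccnd1, 13.8% for Ccnd2 and 39.0% for Ccnd3. Of counts, they were 68.1%, 6.68% and 25.2%, and 49.1% for Cdkn1b, 26.1% for Cdkn2b and 5.19% for Cdkn2c. The number of genes varying more than the median of their nearest genes was 3 to 8 without 1 replicate each, and is not read as a trait of these genes. Depth limits Cdk6, with 60 to 79 counts.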
